A study of Mus musculus with 10 samples.

Results

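The genes described here are 39 components of autophagy and LC3-associated phagocytosis, measured by RNA sequencing in macrophages sorted from mouse mammary tumours. They were taken by symbol: each of the 39 names stood on 1 row in all 10 library tables, out of 21938 genes listed in each. Control macrophages (3 libraries) came from wild-type mice bearing wild-type PyMT cells, cells of a mammary tumour whose oncogene is polyoma middle T. Mertk KO macrophages (4 libraries) came from mice with a knockout of Mertk described as specific to macrophages, bearing the same wild-type PyMT cells. Ptdss1 knockdown macrophages (3 libraries) came from wild-type hosts bearing PyMT cells in which Ptdss1 had been knocked down. All mice were C57BL/6, tumour cells were placed in 2 mammary glands, and macrophages were sorted after 5 weeks of growth. The sources used here give neither the Cre driver and deleted exons nor the knockdown method and number of lines, and do not say if the libraries of a group are separate mice. The p-values therefore measure the spread between these libraries, part of which may be technical. Mertk is a receptor through which macrophages engulf apoptotic cells, and Ptdss1 makes phosphatidylserine, the lipid by which those cells are recognised. The comparisons ask whether loss of the receptor, or less of the synthase in the tumour cells, went with different levels of the genes that act on engulfed material.

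In autophagy, the ULK kinase complex and a class III phosphatidylinositol 3-kinase complex start an isolation membrane, which ATG9, ATG2 and the WIPI proteins help to expand. Conjugation enzymes then attach LC3 and GABARAP proteins to phosphatidylethanolamine in that membrane, where cargo receptors bind them. In LC3-associated phagocytosis, macrophages use much of the same machinery on a phagosome that has taken up dying cells or microbes: the kinase complex with UVRAG and Rubicon and the NADPH oxidase act before LC3 is attached, and the ULK complex is not needed. Rab5, Rab7 and the CORVET and HOPS tethering complexes carry phagosomes and autophagosomes on to fusion with lysosomes. Much of this control acts on proteins and lipids, which RNA levels do not measure.

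Depth was 10292592 to 25815071 reads per library, recovered from the deposited values. Ptdss1 knockdown replicate 1 had 10 or more reads for 6995 genes and control replicate 2 for 9066, against 9585 to 11523 in the other libraries. By this count, which does not use the groups compared, Ptdss1 knockdown replicate 1 stood apart. Control replicate 2 was next lowest but not far below Mertk KO replicate 3, at 9585. Beside a difference from control, the value without control replicate 2 (for Mertk KO) or without Ptdss1 knockdown replicate 1 (for Ptdss1 knockdown) is given where it had the other sign or differed by over 1.5 times. All 10 macrophage markers examined, among them Csf1r, Adgre1 and Cd68, were read in all 10 libraries and summed to between 23496 and 46126 RPM, reads scaled to the library total. Tumour epithelial markers, 10 in number, summed to 64.3 to 159 RPM in Mertk KO, 21.3 to 31.9 in control and 0.26 to 58.9 in Ptdss1 knockdown, mostly from Cdh1; Cldn4 was at 0 in every library and Epcam in all but 2. The 7 NK cell markers summed to 93.6 to 209.9 RPM in control, 14.5 to 50.9 in Mertk KO and 61.3 to 145 in Ptdss1 knockdown, and Ncr1 was at 0 in all but 1 library. The 8 neutrophil markers summed to 29.4 to 274 RPM, mostly from Csf3r and highest in Ptdss1 knockdown replicate 1, with S100a9, Ly6g and Camp at 0 throughout. The 7 dendritic cell markers summed to 509 RPM in Mertk KO replicate 3, nearly all from Cd209a with 9573 reads, to 119 and 40.0 in Ptdss1 knockdown replicates 2 and 3, and to no more than 12.5 elsewhere. Endothelial markers summed to 37.5 to 95.2 RPM, and those of fibroblasts, T cells and B cells to at most 61.8, 41.9 and 42.4. The part of these cell types in the values below was not tested. In bulk RNA, fewer cells that express a gene and less RNA per cell cannot be told apart.

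All 39 genes were detected: each passed the filter of 10 reads in at least 3 libraries, as did 11564 genes in all. For 29 of the 39, every library had 10 or more reads; the other 10 had fewer than 10 reads in at least 1 library, and 4 of these were at 0 in at least 1 library. Of the 390 values, 15 were under 10 reads: 7 fell to Ptdss1 knockdown replicate 1, 5 to control replicate 2, 2 to Mertk KO replicate 3 and 1 to Ptdss1 knockdown replicate 2. Together the 39 genes took 0.53% to 0.69% of the reads of a library.

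Levels were compared between genes in RPKM, which is RPM divided by the kb of merged exons, here the median of the 10 libraries. Cyba, the p22phox chain of the NADPH oxidase, was highest at 1993 RPKM, and Cybb, the catalytic gp91phox chain, had 144. Among LC3 and GABARAP proteins, Gabarap stood at 448 RPKM, Gabarapl2 at 68.7, Map1lc3b at 41.7, Map1lc3a at 24.6 and Gabarapl1 at 9.15. The late endosomal GTPase gene Rab7 had 128 RPKM and the cargo receptor gene Sqstm1, which encodes p62, 49.2. The conjugation enzymes spanned 1.16 RPKM for Atg16l2 to 37.7 for Atg3. The ULK complex spanned 2.0 RPKM for Atg13 to 30 for Atg101, and the phosphatidylinositol 3-kinase complex 1.51 for Pik3r4 to 13.5 for Becn1. The membrane supply genes were low throughout, from 0.632 RPKM for Wipi1 to 2.64 for Atg2a, and Optn, the optineurin cargo receptor, was lowest of the 39 at 0.184.

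**Figure D1:**
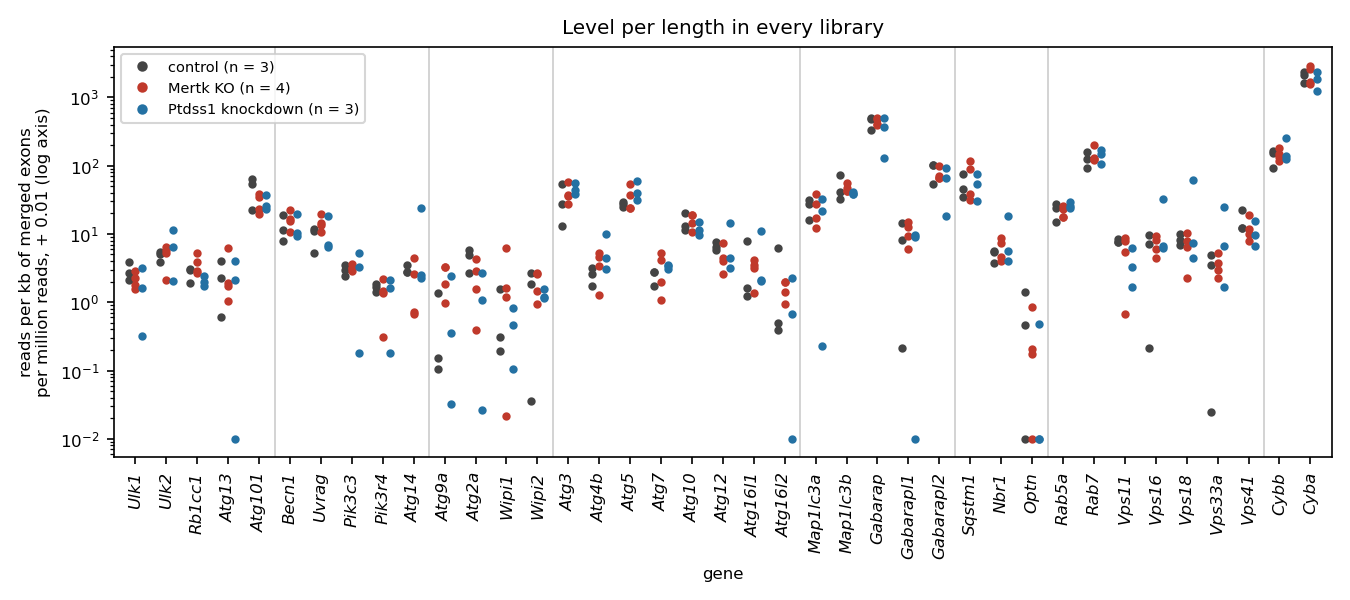
Level of each of the 39 genes in every library, in RPKM with 0.01 added so that values of 0 can be drawn, on a log axis. Each point is 1 library, coloured by group, and grey lines separate the roles; Cyba, Gabarap and Cybb lie highest, and the points at the bottom edge are libraries with 0 reads.

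Within the LC3 and GABARAP family the order of levels per length was the same in 9 of 10 libraries: Gabarap, Gabarapl2, Map1lc3b, Map1lc3a, then Gabarapl1. In Ptdss1 knockdown replicate 1, Map1lc3b stood above Gabarapl2. Gabarap exceeded Map1lc3b by 3.37-fold in Ptdss1 knockdown replicate 1 and by 6.89-fold to 15.1-fold elsewhere. The ratio of Cyba to Cybb was 4.79 in Ptdss1 knockdown replicate 1 and 11.7 to 19.4 in the other libraries. In both ratios, Ptdss1 knockdown replicate 1 lay below all other libraries.

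The spread within groups followed the level. All values from here on are the deposited log2 of normalised reads plus 1, which compare 1 gene across libraries. The 13 genes with a median of 10 or more on that scale had a pooled SD within groups of 0.35 to 0.80, with a median of 0.51. The 26 genes below 10 had 0.30 to 3.35, with a median of 1.41. Over the 39 genes the median was 0.90, against 1.68 for all genes tested, and without Ptdss1 knockdown replicate 1 it was 0.64 against 0.89. Rb1cc1 (0.30), Atg10 (0.32), Rab5a (0.35) and Cyba (0.36) varied little, while Gabarapl1 (3.35), Optn (2.87), Atg16l2 (2.79), Atg13 (2.77) and Vps33a (2.77) varied most.

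**Figure D2:**
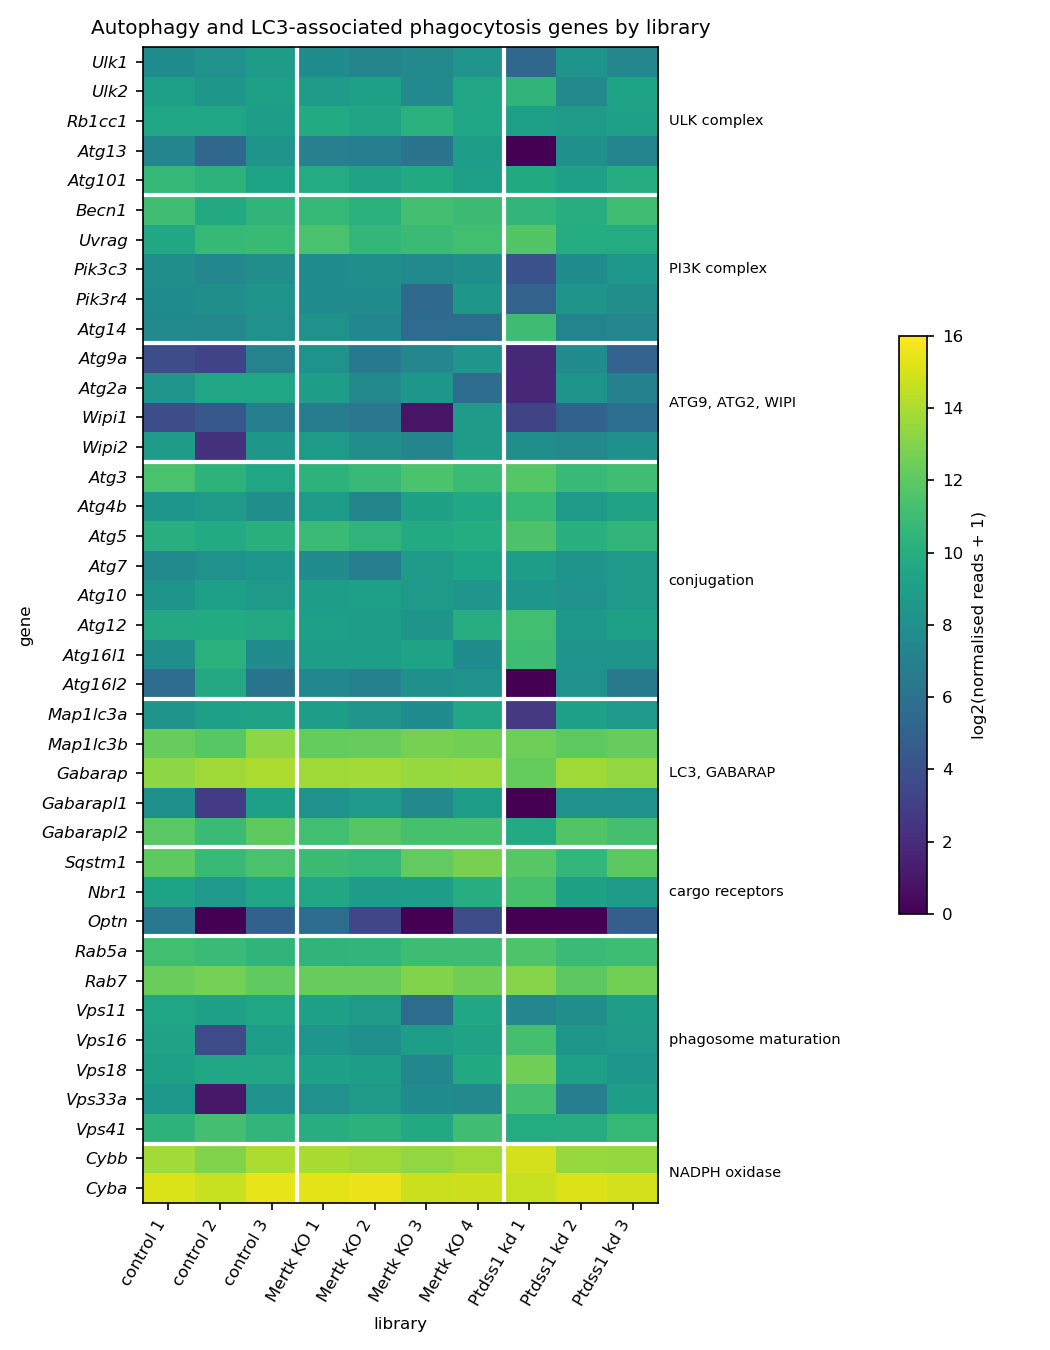
Deposited log2(normalised reads + 1) of the 39 genes (rows, grouped by role) in the 10 libraries (columns, grouped as control, Mertk KO and Ptdss1 knockdown, written kd). Colour gives the level from 0 to 16. Dark cells stand, among others, in control 2 (Vps33a, Wipi2, Gabarapl1) and Ptdss1 kd 1 (Atg13, Atg16l2, Gabarapl1, Atg2a, Atg9a). Wipi1 is dark in Mertk KO 3, and Optn is at 0 in 4 libraries across all groups.

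No gene of the 39 passed the test in any comparison. With limma's moderated test and Benjamini-Hochberg adjustment over the 11564 genes, 0 of 39 were called in Mertk KO against control, where 0.0173% of all genes tested were called. In Ptdss1 knockdown against control it was 0 of 39, with 0.0% of all genes called, and in Mertk KO against Ptdss1 knockdown 0 of 39, with 0.0%. The smallest adjusted p among the 39 was 1.0, 0.841 and 0.805 in that order. At an unadjusted p under 0.05, limma called 0, 1 and 0 of the 39 in the same order, against 2.06%, 2.9% and 3.73% of all genes, and limma-voom on the recovered reads also called 0, 1 and 0. Ranges that did not overlap with control were found for 0 of 39 in Mertk KO, where 3.0% of all genes were wholly higher and 2.62% wholly lower. In Ptdss1 knockdown, 0 of 39 lay wholly above control (3.32% of all genes) and 2 wholly below (3.6% of all genes), Atg2a and Vps11. Between Mertk KO and Ptdss1 knockdown, 1 of 39 lay wholly higher in Mertk KO (2.91% of all genes), Rb1cc1, and 0 wholly lower (2.32%). These shares are near those of all genes tested.

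The median log2 fold change of the 39 genes was 0.09 in Mertk KO against control (0.02 over all genes tested), with 23 positive and 16 negative. Without control replicate 2 this median was -0.18 (-0.08 over all genes), and without Mertk KO replicate 4 it was -0.01 (0.05 over all genes). For Ptdss1 knockdown against control it was -0.12 (-0.05 over all genes), with 19 positive and 20 negative. Without control replicate 3 it was 0.05 (0.02 over all genes). Between Mertk KO and Ptdss1 knockdown it was 0.17 (0.11 over all genes), with 23 positive. Without Mertk KO replicate 4 it was -0.04 (0.15 over all genes). The sign of each median thus depended on single libraries. Scaling by upper quartiles in place of the deposited factors moved the median of all genes from -0.05 to -0.24 in Ptdss1 knockdown against control and from 0.11 to 0.30 between the manipulated groups, and the 39 genes moved with it, to -0.33 and 0.39. Both comparisons with control use the same 3 control libraries.

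A gene that missed the threshold is not shown to be unchanged, so the intervals matter. For 6 genes the 95% interval of Mertk KO against control lay within a 2-fold change either way: Cyba, Cybb, Gabarap, Map1lc3b, Rab5a and Rab7. Only Cyba met this in Ptdss1 knockdown against control, and Cyba and Rab7 met it between Mertk KO and Ptdss1 knockdown. Over all genes tested, 1.69%, 0.873% and 1.75% had so narrow an interval. Without Ptdss1 knockdown replicate 1 the counts among the 39 were 7, 5 and 5. Other libraries left out gave fewer. In Mertk KO against control the count was 1 without control replicate 1, 2 or 3. In Ptdss1 knockdown against control it was 0 without control replicate 1 or 2. Between Mertk KO and Ptdss1 knockdown it was 0 without Mertk KO replicate 3 or 4. For genes not named here, the interval from all libraries reached past a 2-fold change.

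**Figure D3:**
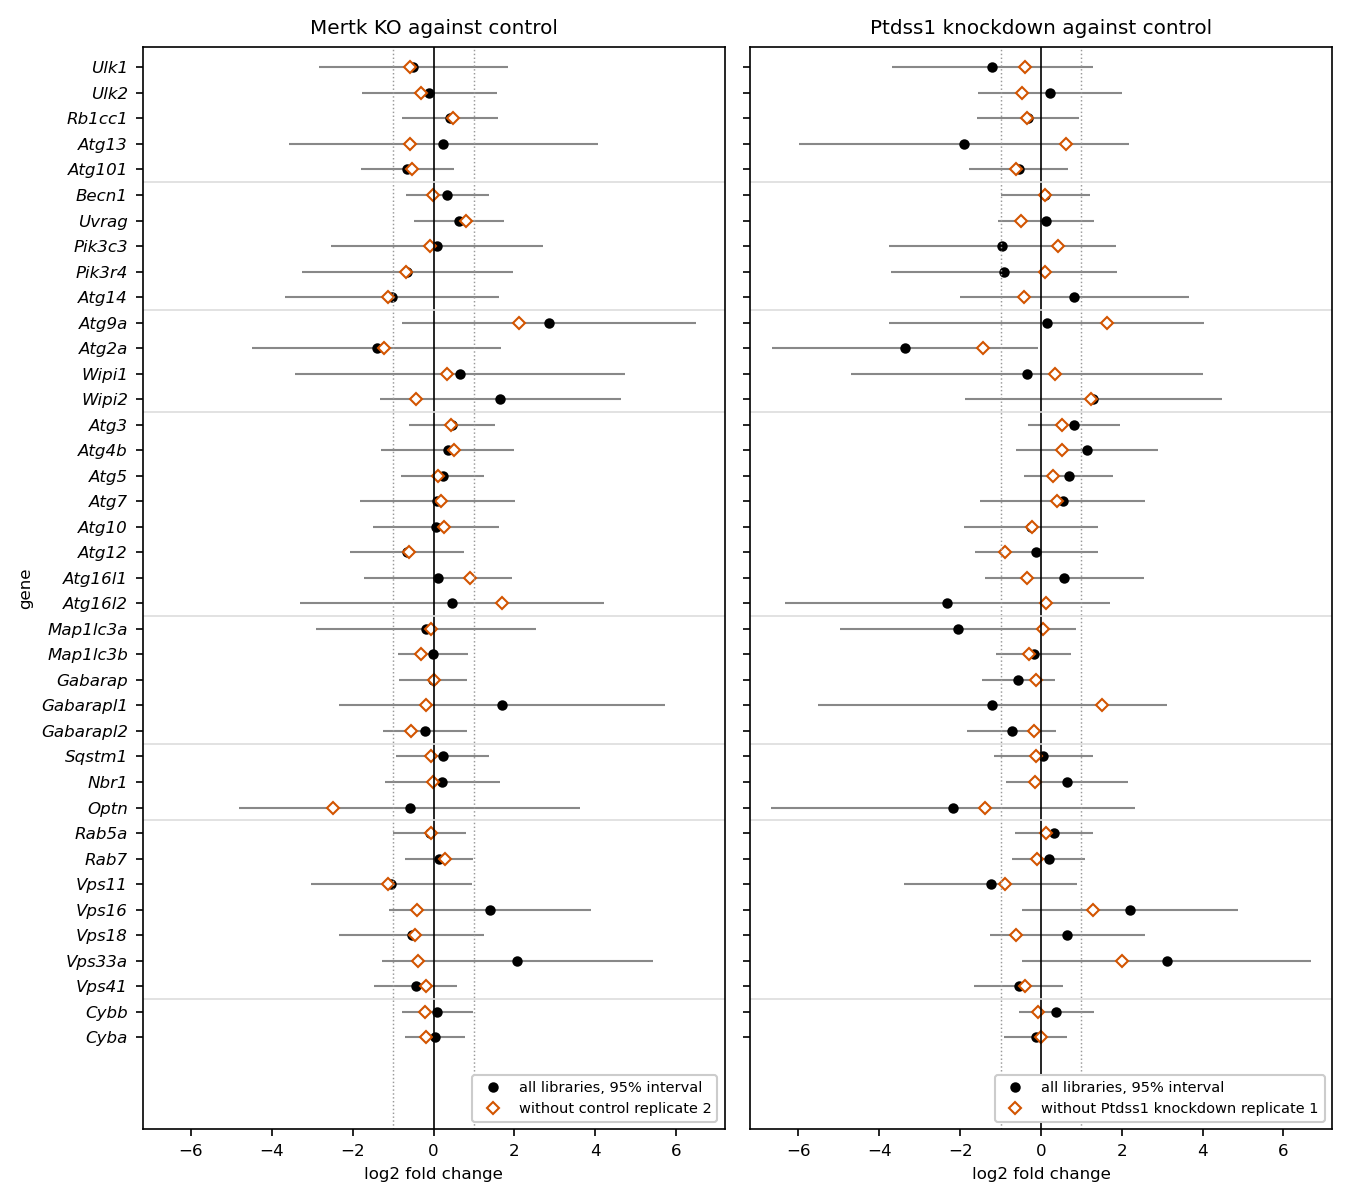
Log2 fold change of the 39 genes in Mertk KO against control (left) and Ptdss1 knockdown against control (right), from limma on log2(normalised reads + 1). Black points with grey lines are estimates from all libraries with 95% intervals, and open diamonds are estimates without control replicate 2 (left) or Ptdss1 knockdown replicate 1 (right); dotted lines mark 2-fold changes. The estimates farthest from 0, such as Atg9a, Vps33a and Atg2a, have wide intervals, and Vps33a in Mertk KO crosses 0 without control replicate 2.

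Differences below are log2 fold changes against the named group, with the standard error (SE) from the fit. The ULK complex phosphorylates autophagy proteins when nutrients or energy are short, and holds the kinases ULK1 or ULK2 with RB1CC1, ATG13 and ATG101. Ulk1 measured 7.80, 8.06 and 8.81 in the control libraries, 7.77, 7.31, 7.51 and 8.31 in Mertk KO and 5.41, 8.29 and 7.38 in Ptdss1 knockdown. Ptdss1 knockdown replicate 1 was the low library, and the groups overlapped. The log2 fold change was -0.50 (SE 1.11) in Mertk KO and -1.20 (SE 1.19) in Ptdss1 knockdown, the latter -0.39 without that library. Atg101, which stabilises ATG13, measured 10.66, 10.35 and 9.31 in the control libraries, 9.85, 9.19, 9.75 and 9.05 in Mertk KO and 9.69, 9.10 and 9.88 in Ptdss1 knockdown. It had the fourth smallest p of the 39 in Mertk KO, with a log2 fold change of -0.65 (SE 0.55) and an unadjusted limma p of 0.252, but control replicate 3 lay among the Mertk KO values. In Ptdss1 knockdown its difference was -0.55 (SE 0.58).

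Rb1cc1, at chr1:6206197-6276648 and encoding the scaffold FIP200, measured 9.46, 9.40 and 8.98 in the control libraries, 9.76, 9.37, 10.22 and 9.40 in Mertk KO and 9.01, 8.75 and 9.14 in Ptdss1 knockdown. Every Mertk KO value lay above every Ptdss1 knockdown value, from 8.75 in knockdown replicate 2 to 10.22 in Mertk KO replicate 3, with the controls across the gap. The log2 fold change between these groups was 0.72 (SE 0.56) with limma's adjusted p of 0.805, and 0.74 without Ptdss1 knockdown replicate 1. Part of the gene overlaps an antisense transcript, and the libraries do not mark strand. Ulk2 ranged from 7.51 to 10.46 and Atg13 from 0.00 to 8.88. Over the 5 genes of the complex, 4 fold changes were negative in Ptdss1 knockdown and 3 in Mertk KO.

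The class III phosphatidylinositol 3-kinase complex makes the lipid that marks nascent autophagosomes and phagosomes. Its core is PIK3C3, PIK3R4 and Beclin 1, joined by ATG14 in autophagy or by UVRAG at endosomes and in LC3-associated phagocytosis. Becn1 measured 11.06, 9.72 and 10.50 in the control libraries, 10.69, 10.20, 11.24 and 10.96 in Mertk KO and 10.54, 9.97 and 11.11 in Ptdss1 knockdown. Its groups overlapped, with log2 fold changes of 0.34 (SE 0.49) in Mertk KO, which became -0.01 without control replicate 2, and 0.11 (SE 0.52) in Ptdss1 knockdown, which was -0.24 without control replicate 2 and negative with upper-quartile scaling. Becn1 shares a run of 1299 identical transcript bases with its neighbour Cntd1, so reads of the pair may not be told apart.

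Uvrag measured 9.59, 10.70 and 10.81 in the control libraries, 11.39, 10.57, 10.90 and 11.13 in Mertk KO and 11.70, 9.88 and 9.86 in Ptdss1 knockdown. Control replicate 1 and Ptdss1 knockdown replicates 2 and 3 were the low libraries and Ptdss1 knockdown replicate 1 the highest. The difference from control was 0.63 (SE 0.53) in Mertk KO, with an unadjusted limma p of 0.248, and 0.11 (SE 0.57) in Ptdss1 knockdown, which was -0.50 without replicate 1 and negative with upper-quartile scaling. Its transcript holds a stretch at least 95% identical to those of other genes, such as Mettl6. Atg14 measured 7.59, 7.52 and 8.09 in the control libraries, 8.16, 7.45, 5.61 and 5.64 in Mertk KO and 11.04, 7.21 and 7.42 in Ptdss1 knockdown. Mertk KO replicates 3 and 4 were the lowest and Ptdss1 knockdown replicate 1 the highest, and between the manipulated groups the log2 fold change of -1.84 (SE 1.26) became -0.61 without that library. The kinase subunit genes Pik3c3 and Pik3r4 were each lowest in Ptdss1 knockdown replicate 1, at 4.05 and 5.09, and both reached no higher than 8.54 and 8.47.

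ATG9 vesicles, the lipid transfer protein ATG2 and the WIPI proteins supply and shape the isolation membrane. The 4 genes had pooled SDs within groups of 2.14 to 2.32, and held the only unadjusted p under 0.05 among the 39 in any comparison. Atg2a, at chr19:6241668-6262335 in the GENCODE annotation of GRCm38 (mm10), measured 8.37, 9.43 and 9.39 in the control libraries, 8.97, 7.56, 8.42 and 5.66 in Mertk KO and 1.85, 8.25 and 7.02 in Ptdss1 knockdown. All 3 Ptdss1 knockdown libraries lay below all 3 controls, but knockdown replicate 1, with 3 reads, was far below the rest, and knockdown replicate 2 was just below the lowest control. Its difference of -3.36 (SE 1.57), with an unadjusted limma p of 0.0461 and an adjusted p of 0.841, became -1.43 without replicate 1. In Mertk KO it was -1.41 (SE 1.47).

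Atg9a, at chr1:75180860-75192196 and encoding the membrane protein of those vesicles, measured 3.81, 3.23 and 7.13 in the control libraries, 8.16, 6.44, 7.38 and 8.33 in Mertk KO and 1.85, 7.72 and 5.01 in Ptdss1 knockdown. Control replicates 1 and 2 and Ptdss1 knockdown replicate 1 were low, with 16, 8 and 3 reads. Its log2 fold change of 2.86 (SE 1.73) was the largest of the 39 in Mertk KO against control, with an unadjusted limma p of 0.117 and a value of 2.11 without control replicate 2. Against Ptdss1 knockdown it was 2.72 (SE 1.73), and 1.21 without knockdown replicate 1. The Atg9a transcript shares a stretch of 1073 bases, 99.9% identical, with the processed transcript Gm29253, which could take some of its reads. Wipi2, which recruits ATG16L1, ranged from 2.37 in control replicate 2 (4 reads) to 8.85, and its 1.65 in Mertk KO against control turned to -0.44 without that library. Wipi1 ranged from 0.86 in Mertk KO replicate 3 (1 read) to 8.85 in Mertk KO replicate 4.

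The conjugation enzymes comprise the E1-like ATG7, the E2-like ATG3 and ATG10, the protease ATG4B, and the ATG12, ATG5 and ATG16L1 complex that sets where LC3 is attached. Atg5 measured 10.12, 9.81 and 10.16 in the control libraries, 10.89, 10.41, 9.80 and 9.91 in Mertk KO and 11.50, 10.13 and 10.54 in Ptdss1 knockdown. Ptdss1 knockdown replicate 1 was the highest and all groups overlapped, with log2 fold changes of 0.22 (SE 0.49) in Mertk KO, or 0.11 without control replicate 2, and 0.69 (SE 0.52) in Ptdss1 knockdown, or 0.30 without replicate 1. Atg7 measured 7.57, 8.22 and 8.39 in the control libraries, 7.72, 6.85, 8.79 and 9.27 in Mertk KO and 8.90, 8.31 and 8.60 in Ptdss1 knockdown. All groups overlapped, and the differences were 0.10 (SE 0.91), or 0.17 without control replicate 2, and 0.54 (SE 0.97).

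Atg16l1 measured 7.96, 10.20 and 7.72 in the control libraries, 8.97, 8.89, 9.29 and 7.79 in Mertk KO and 11.06, 8.27 and 8.28 in Ptdss1 knockdown. Control replicate 2 and Ptdss1 knockdown replicate 1, the libraries with the fewest genes detected, were its highest values. The log2 fold change in Mertk KO was 0.11 (SE 0.87), or 0.90 without control replicate 2, and in Ptdss1 knockdown 0.58 (SE 0.93), or -0.35 without replicate 1. Its paralogue Atg16l2 measured 5.73, 9.65 and 6.23 in the control libraries, 7.48, 6.97, 8.03 and 8.17 in Mertk KO and 0.00, 8.14 and 6.50 in Ptdss1 knockdown. The same libraries held its extremes in opposite directions, the highest in control replicate 2 and 0 reads in Ptdss1 knockdown replicate 1. The difference between Mertk KO and Ptdss1 knockdown was 2.78 (SE 1.79), and 0.34 without that library.

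Atg3, which hands LC3 to the lipid, measured 11.43, 10.37 and 9.49 in the control libraries, 10.34, 10.85, 11.44 and 10.93 in Mertk KO and 11.81, 10.81 and 11.11 in Ptdss1 knockdown. Control replicate 3 was the lowest and Ptdss1 knockdown replicate 1 the highest, and control replicate 1 lay above both other knockdown libraries. Its log2 fold change in Ptdss1 knockdown was 0.81 (SE 0.54), with an unadjusted limma p of 0.153, and 0.53 without replicate 1. Atg4b, Atg10 and Atg12 had fold changes of 0.35, 0.06 and -0.66 in Mertk KO and 1.13, -0.25 and -0.12 in Ptdss1 knockdown. Without Ptdss1 knockdown replicate 1, Atg4b had 0.53 and Atg12 -0.90, and without control replicate 2 Atg10 had 0.26 in Mertk KO. Over the 8 enzymes, 7 were positive in Mertk KO, with a median of 0.17 that was 0.34 without control replicate 2, and 5 in Ptdss1 knockdown, with a median of 0.56 that was 0.21 without replicate 1. The counts of positive values were the same under all 3 scalings, but signs in Mertk KO depended on single libraries. Leaving out control replicate 1 turned the sign of Atg7, Atg10, Atg16l1 and Atg16l2 there. Leaving out control replicate 3 turned that of Atg3, Atg16l1 and Atg16l2.

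LC3 and GABARAP proteins are the ubiquitin-like tags that mark the membrane and bind cargo receptors. Map1lc3b, the most used marker of the family, measured 12.27, 11.85 and 13.26 in the control libraries, 12.21, 12.30, 12.69 and 12.56 in Mertk KO and 12.50, 12.06 and 12.27 in Ptdss1 knockdown. Apart from the high control replicate 3 the libraries lay close together and the groups overlapped. The log2 fold change was -0.02 (SE 0.41) in Mertk KO, with a 95% interval from -0.88 to 0.85, and -0.18 (SE 0.44) in Ptdss1 knockdown, from -1.11 to 0.74. These were -0.32 without control replicate 2 and, leaving out Ptdss1 knockdown replicate 1, -0.29. Gabarap measured 13.29, 13.74 and 14.01 in the control libraries, 13.71, 13.80, 13.53 and 13.58 in Mertk KO and 12.22, 13.73 and 13.39 in Ptdss1 knockdown. Only Ptdss1 knockdown replicate 1 stood clear of the others, and below them. The difference was -0.02 (SE 0.40) in Mertk KO, within -0.87 to 0.82 and 0.01 without control replicate 2, and -0.57 (SE 0.43) in Ptdss1 knockdown, which was -0.12 without replicate 1.

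Gabarapl2 measured 11.88, 10.92 and 12.04 in the control libraries, 11.17, 11.80, 11.32 and 11.34 in Mertk KO and 9.76, 11.64 and 11.26 in Ptdss1 knockdown. Again Ptdss1 knockdown replicate 1 was the lowest, followed by control replicate 2. The difference was -0.21 (SE 0.49) in Mertk KO, or -0.55 without control replicate 2, and -0.73 (SE 0.53) in Ptdss1 knockdown, or -0.17 without replicate 1. The mouse genome holds 3 processed pseudogenes at least 95% identical to parts of Gabarapl2, which could take some of its reads. Gabarapl1 measured 8.04, 2.86 and 9.03 in the control libraries, 8.16, 8.64, 7.55 and 8.99 in Mertk KO and 0.00, 8.17 and 8.16 in Ptdss1 knockdown. Control replicate 2 had 6 reads and Ptdss1 knockdown replicate 1 had 0, while the other 8 libraries lay between 7.55 and 9.03. Its 1.69 in Mertk KO against control became -0.20 without control replicate 2, and its 2.89 between Mertk KO and Ptdss1 knockdown became 0.17 without knockdown replicate 1. Map1lc3a was likewise lowest in Ptdss1 knockdown replicate 1, with 6 reads, and had 8.27, 9.13 and 9.19 in the controls.

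All 5 fold changes of the family were negative in Ptdss1 knockdown against control, with a median of -0.73, under all 3 scalings. Without Ptdss1 knockdown replicate 1, 2 of 5 were positive and the median was -0.12. In Mertk KO against control, 4 of 5 were negative with a median of -0.02. None passed the test.

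Cargo receptors link ubiquitin-tagged material to LC3. Sqstm1 measured 12.01, 10.80 and 11.39 in the control libraries, 10.94, 10.68, 12.17 and 12.72 in Mertk KO and 11.82, 10.58 and 11.98 in Ptdss1 knockdown. Mertk KO ran from below the lowest control in replicate 2 to above the highest in replicates 3 and 4, so the groups overlapped. Differences were 0.22 (SE 0.55) in Mertk KO, which was -0.08 without control replicate 2, and 0.06 (SE 0.58) in Ptdss1 knockdown, which was -0.12 without replicate 1, -0.24 without control replicate 2 and negative with upper-quartile scaling. Sqstm1 shares 583 identical transcript bases with the overlapping gene Mrnip. Nbr1 ranged from 8.62 to 11.33, with a difference of 0.22 in Mertk KO, which was -0.02 without control replicate 2, and 0.65 in Ptdss1 knockdown, which was -0.14 without replicate 1. Optn had 0 reads in 4 libraries, at least 1 in each group, and no more than 105 in any other.

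Rab5 and Rab7 mark early and late phagosomes and endosomes in turn. Rab7 measured 12.37, 12.65 and 12.08 in the control libraries, 12.27, 12.26, 12.97 and 12.51 in Mertk KO and 13.12, 11.99 and 12.57 in Ptdss1 knockdown. Every group overlapped the others, and the log2 fold change was 0.14 (SE 0.40) in Mertk KO, within -0.71 to 0.98 and 0.28 without control replicate 2. In Ptdss1 knockdown it was 0.19 (SE 0.43), which was -0.09 without replicate 1 and negative with upper-quartile scaling. A processed pseudogene, Rab7-ps1, is 98.4% identical over 622 bases. Rab5a ranged from 10.46 to 11.61, with differences of -0.09 and 0.33, which were -0.05 without control replicate 2 and, leaving out Ptdss1 knockdown replicate 1, 0.12.

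VPS11, VPS16, VPS18 and VPS33A form the core shared by the CORVET and HOPS tethers, and VPS41 belongs to HOPS, which binds Rab7 compartments to lysosomes. Vps33a, at chr5:123528659-123573038, measured 8.55, 1.03 and 8.23 in the control libraries, 8.07, 8.63, 7.80 and 7.54 in Mertk KO and 11.25, 6.91 and 8.98 in Ptdss1 knockdown. Control replicate 2, with 1 read, was far below every other library, and Ptdss1 knockdown replicate 1 was the highest. Its difference of 2.07 (SE 1.59) in Mertk KO became -0.38 without control replicate 2. In Ptdss1 knockdown, 3.11 (SE 1.70) became 2.01 without replicate 1, 0.65 without that control and -0.45 without both.

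Vps16, at chr2:130424339-130444269, measured 9.19, 3.64 and 8.88 in the control libraries, 8.42, 8.0, 8.89 and 9.23 in Mertk KO and 11.26, 8.45 and 8.63 in Ptdss1 knockdown. It had the same low and high libraries as Vps33a. Its differences of 1.40 (SE 1.19) and 2.20 (SE 1.27) became -0.40 and 0.41 without control replicate 2, and the second 1.30 without Ptdss1 knockdown replicate 1 and -0.50 without both libraries. Vps18 was also highest in Ptdss1 knockdown replicate 1, at 12.54 against 9.72 or less elsewhere, but had 9.49 in control replicate 2, its highest control value. Vps11 measured 9.40, 9.17 and 9.40 in the control libraries, 9.18, 8.73, 5.68 and 9.54 in Mertk KO and 7.39, 7.92 and 8.94 in Ptdss1 knockdown. All Ptdss1 knockdown values lay below all control values, although Mertk KO replicate 3 was lower still, and the log2 fold change of -1.24 (SE 1.02) had a limma adjusted p of 0.841 and was -0.89 without knockdown replicate 1. With all libraries the 4 core genes had no common direction: Vps16 and Vps33a were positive and Vps11 and Vps18 negative in Mertk KO, and in Ptdss1 knockdown Vps11 alone was negative. Without control replicate 2 all 4 were negative in Mertk KO, at -1.12, -0.40, -0.47 and -0.38 for Vps11, Vps16, Vps18 and Vps33a. Without that library and Ptdss1 knockdown replicate 1, all 4 were negative in Ptdss1 knockdown too, at -0.97, -0.50, -0.55 and -0.45. Both sets of differences use the same controls, the second rests on few libraries, and none of the 4 genes was called in either fit. The Mertk KO value of Vps11 includes the low replicate 3, at 5.68. Vps41 ranged from 9.69 to 11.19, with differences of -0.44, or -0.19 without control replicate 2, and -0.55.

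Vps16, Vps33a and Rab5a are shown by their promoters because among the promoters matched these alone held a full CLEAR-type element of 10 bases, the E-box CACGTG with GT before it and AC after it. That is the kind of site bound by TFEB and TFE3, which drive lysosomal and autophagy genes. The RefSeq promoter table on GRCm38.p6, covering 250 bases before to 50 after each gene start, matched 32 of the 39 genes with 34 promoters. The element, which reads the same on both strands, lay in 3 of these 34 promoters, in 0.326% of all 32851 promoters and in 0.721% of the 11644 promoters of tested genes. CACGTG with any flanks lay in 7 of 34, those of Atg14, Atg3, Atg5, Atg7, Rab5a, Vps16 and Vps33a, against 7.15% of all promoters and 9.95% of those of tested genes. The sequences are printed 5′ to 3′ on the strand of the gene, with the element in capitals.
Rab5a, chr17:53478984-53479283, plus strand: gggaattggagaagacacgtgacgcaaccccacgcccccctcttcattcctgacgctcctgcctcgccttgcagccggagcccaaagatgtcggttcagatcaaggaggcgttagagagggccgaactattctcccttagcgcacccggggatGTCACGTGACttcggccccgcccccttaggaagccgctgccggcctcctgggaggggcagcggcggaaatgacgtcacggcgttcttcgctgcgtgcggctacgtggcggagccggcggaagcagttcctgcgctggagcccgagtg
Vps16, chr2:130424070-130424369, plus strand: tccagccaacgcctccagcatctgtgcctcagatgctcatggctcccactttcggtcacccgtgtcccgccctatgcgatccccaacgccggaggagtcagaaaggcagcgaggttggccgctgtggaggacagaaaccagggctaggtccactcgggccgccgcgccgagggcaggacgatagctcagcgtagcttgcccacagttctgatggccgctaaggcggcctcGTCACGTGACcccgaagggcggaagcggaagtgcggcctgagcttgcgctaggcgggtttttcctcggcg
Vps33a, chr5:123572966-123573265, minus strand: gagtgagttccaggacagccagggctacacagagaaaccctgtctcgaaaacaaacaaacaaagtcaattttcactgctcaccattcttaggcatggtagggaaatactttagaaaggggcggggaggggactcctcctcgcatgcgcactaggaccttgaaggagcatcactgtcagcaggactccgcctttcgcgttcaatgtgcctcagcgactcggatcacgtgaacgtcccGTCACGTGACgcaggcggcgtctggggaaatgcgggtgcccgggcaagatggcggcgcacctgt
The element starts 97 bases before the gene start in Rab5a, 20 before it in Vps16 and 14 before it in Vps33a. Rab5a was among the steadiest of the 39 across libraries and Vps33a among the most variable. Vps16 and Vps33a were each lowest in control replicate 2 and highest in Ptdss1 knockdown replicate 1. A link between the element and this spread was not tested. Tfeb measured 7.40, 8.30 and 7.52 in the control libraries, 8.65, 7.57, 9.56 and 5.66 in Mertk KO and 10.82, 7.32 and 7.59 in Ptdss1 knockdown. Its groups overlapped, with Ptdss1 knockdown replicate 1 highest and Mertk KO replicate 4 lowest, and differences of 0.12 (SE 1.16) and 0.83 (SE 1.25). Without control replicate 2 the first was 0.40, and without Ptdss1 knockdown replicate 1 the second was -0.29. A match of letters is a description of the window and not evidence of binding.

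The NADPH oxidase produces superoxide in the phagosome, and its membrane part is the CYBB and CYBA pair. Cybb measured 13.79, 12.98 and 14.02 in the control libraries, 13.96, 13.73, 13.38 and 13.69 in Mertk KO and 14.88, 13.55 and 13.49 in Ptdss1 knockdown. Control replicate 2 was the lowest and Ptdss1 knockdown replicate 1 the highest of the 10, with the remaining libraries within 13.38 to 14.02. Differences were 0.09 (SE 0.41) in Mertk KO, within -0.78 to 0.97 and -0.21 without control replicate 2, and 0.38 (SE 0.44) in Ptdss1 knockdown, which was -0.08 without replicate 1. Cyba measured 15.10, 14.63 and 15.42 in the control libraries, 15.33, 15.53, 14.72 and 14.75 in Mertk KO and 14.66, 15.17 and 14.92 in Ptdss1 knockdown. The groups overlapped fully, and Cyba alone had an interval within 2-fold in all 3 comparisons: -0.71 to 0.77 in Mertk KO, -0.92 to 0.65 in Ptdss1 knockdown and -0.57 to 0.90 between them. Its differences of 0.03 and -0.13 from control were -0.18 without control replicate 2 and, leaving out Ptdss1 knockdown replicate 1, -0.01.

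Cytosolic oxidase subunits and Rubicon, listed with the 39 genes as the wider pathway, were not called either. Ncf1, which encodes p47phox, measured 11.29, 10.93 and 11.34 in the control libraries, 11.40, 11.41, 11.49 and 11.74 in Mertk KO and 12.99, 11.30 and 11.43 in Ptdss1 knockdown. All Mertk KO values lay just above all control values but the log2 fold change of 0.32 (SE 0.45), or 0.20 without control replicate 2, had an unadjusted limma p of 0.486, and Ptdss1 knockdown replicate 1 was higher than any of them. Ncf4, which encodes p40phox, ranged from 10.97 to 12.81 and was highest in Ptdss1 knockdown replicate 1. Its differences were -0.03 (SE 0.45) in Mertk KO, which was 0.25 without control replicate 2, and 0.55 (SE 0.48) in Ptdss1 knockdown, which was 0.31 without replicate 1. Rubcn, which encodes Rubicon, required for LC3-associated phagocytosis and inhibitory to autophagy, measured 7.82, 8.63 and 7.07 in the control libraries, 7.85, 7.01, 6.59 and 4.69 in Mertk KO and 2.42, 8.10 and 7.10 in Ptdss1 knockdown. Mertk KO replicate 4 and Ptdss1 knockdown replicate 1 were low, and the differences were -1.30 (SE 1.57) and -1.97 (SE 1.68), the latter -0.24 without replicate 1.

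Of 59 further pathway genes in 4 lists (oxidase and Rubicon, other autophagy factors, fusion and tethering, and regulators), 58 were tested and 0 were called in any comparison, with 0, 1 and 1 at an unadjusted limma p under 0.05, against 2.06%, 2.9% and 3.73% of all genes tested. In Mertk KO, 3 of 58 lay wholly above control (3.0% of all genes) and 3 wholly below (2.62%), and in Ptdss1 knockdown 0 above (3.32%) and 2 below (3.6%). Between the manipulated groups 2 lay wholly higher in Mertk KO (2.91%) and 1 wholly lower (2.32%). In Mertk KO, 32 of 58 were positive with a median of 0.09, in Ptdss1 knockdown 34 with a median of 0.18, and between the manipulated groups 29 with a median of 0.02. The genes below had the smallest p of their list and none passed the adjusted test.

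In Mertk KO against control, the genes of smallest p were the gene of the oxidase regulator Nrros at 0.45, the cargo receptor gene Calcoco1 at 3.44, the scramblase gene Tmem41b at -0.71, the fusion SNARE gene Snap29 at 3.00, the Rab7 effector gene Rilp at -2.87, and the mTORC1 inhibitor genes Sesn2 at 3.03 and Ddit4 at 2.50. Calcoco1, Snap29, Sesn2 and Ddit4 had 0 reads in control replicate 2, and their values without it were 1.68, 0.30, 0.86 and 0.51. Tmem41b, which measured 9.34, 9.15 and 9.13 in the controls, lay wholly lower in Mertk KO, at 8.85, 8.90, 8.56 and 7.68, with an unadjusted limma p of 0.292.

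In Ptdss1 knockdown against control, the genes of smallest p were Nrros at 1.04, the oxidase GTPase gene Rac2 at 0.82, the cargo adaptor gene Tollip at -2.40, the kinase complex gene Nrbf2 at -2.66, the tethering genes Vps33b at 1.78 and Tgfbrap1 at -2.13, Sesn2 at 3.65, and Prkaa1, which encodes an AMPK subunit, at -2.11. Tollip measured 9.07, 9.28 and 9.92 in control and 3.81, 8.60 and 8.65 in Ptdss1 knockdown, and Nrbf2 9.97, 9.84 and 10.05 and 2.63, 9.54 and 9.69. Both lay wholly below control, with replicate 1 far below, and without it the differences were -0.80 and -0.34. Without that library Prkaa1 had -0.68, Tgfbrap1 -0.05, Vps33b 0.84, Nrros 0.44 and Sesn2 2.18. Sesn2 was 1.48 without control replicate 2, where it had 0 reads, and 0.01 without both libraries.

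Between Mertk KO and Ptdss1 knockdown, Wdr45b, which encodes the WIPI3 protein, had an unadjusted limma p of 0.041 and a log2 fold change of 2.41, which was 0.47 without knockdown replicate 1. Nrbf2 had 2.71, Snap29 2.80, the tethering gene Vps8 -1.84, the proton channel gene Hvcn1 -0.79, the transcription factor gene Tfe3 2.41 and the mTORC1 subunit gene Rptor -1.58. Without that library these were 0.39, 0.92, -1.25, 0.09, 0.08 and -0.37.

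Across the 39 genes, Ptdss1 knockdown replicate 1 held the lowest of the 10 values for 11 and the highest for 15. Among all genes tested it held the lowest for 30.6% and the highest for 28.8%. Control replicate 2 held the lowest for 8 of the 39 (20.5%, against 13.4% of all genes) and the highest for 4 (10.3%, against 14.4%). Mertk KO replicate 3 held the lowest for 7 (17.9%, against 9.02%) and Mertk KO replicate 4 the highest for 9 (23.1%, against 11.4%). Leaving out control replicate 2 turned the sign of 12 of the 39 differences in Mertk KO against control. In the same comparison, leaving out control replicate 1 turned 6 and control replicate 3 turned 7. Leaving out Mertk KO replicates 1, 2, 3 and 4, each in turn, turned 4, 3, 7 and 6. Leaving out Ptdss1 knockdown replicate 1 turned the sign of 16 of the 39 differences in Ptdss1 knockdown against control and of 17 between Mertk KO and Ptdss1 knockdown.

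**Figure D4:**
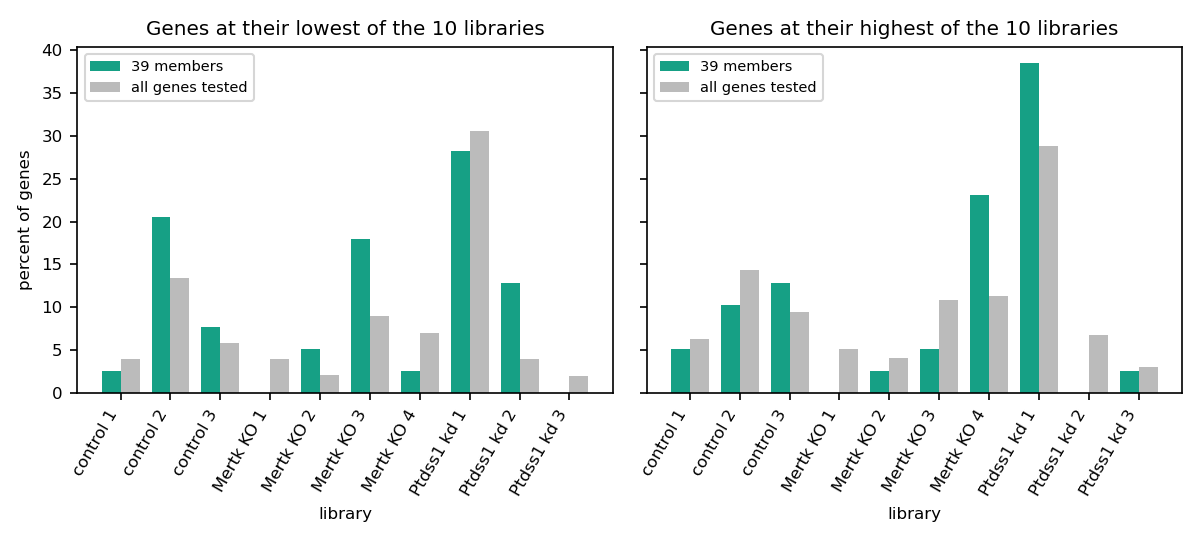
Percent of genes whose lowest (left) or highest (right) value of the 10 libraries fell in each library, for the 39 genes (green) and all 11564 genes tested (grey), ties left out. Ptdss1 knockdown replicate 1 (Ptdss1 kd 1) holds the largest share in both panels, 11 and 15 of the 39 genes.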

How the data were processed

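Sorted tumour macrophages were profiled as SMART-Seq v4 cDNA, amplified by 16 PCR cycles and made into ThruPLEX libraries without strand marks, read in 75 cycles, per the labels' protocols. The submitters' processing notes name STAR, RSEM and mm10, without versions. The authors deposited 1 value per gene and library, read here from the values as log2 of reads divided by a size factor, plus 1. Undoing the log recovered whole reads (within 0.01) for 100% of values, giving totals of 10292592 to 25815071. No unique molecular identifiers were used, so counting precision is overstated by totals.

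Groups came from the labels, which number no replicates; replicate numbers are in accession order. Genes with 10 reads in at least 3 libraries (11564) entered 1 limma-trend fit with robust moderation (limma 3.58.1, R 4.3.3) over all 10 libraries, two-sided, with Benjamini-Hochberg adjusted p below 0.05 as the threshold. Fold changes on this scale understate low genes. RPKM used recovered reads and merged exons of GENCODE M21. Near-identical copies were found with blastn 2.17.0 (95% identity over 200 bases). Alternatives were 2 other scalings, 3 filters, a pseudocount of 8, limma-voom, no robust moderation, library weights, only the 2 groups compared, and leaving out libraries. The fit was also run on simulated counts with large differences only, drawn independently for each library. That run cannot speak to small differences or to a library with many genes missing, and nothing is concluded from it.

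The 39 genes, the pathway lists and markers were chosen with earlier results of these data known. Values in every library were given for 12 genes of central role and the 4 smallest p of each comparison; Rb1cc1 and Vps11 were added after their values were seen, and so were the mentions of Atg4d, Lamp2 and Cd209a. From the pathway lists Rubcn, Ncf1, Ncf4 and Tfeb were named, and up to 2 genes per list and comparison by smallest p. Vamp7 of the fusion list matched no unique row and was not tested. The values of 1 further pathway gene are not reported here.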

Additional observations from a re-analysis of the deposited data

Results flagged for a closer look

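In the 4 Mertk KO libraries, 4 of the 58 pathway genes tested and none of the 39 genes had a library far from the other 3, which is 4.12% of these 97 genes, where chance gives about 1 in 20; among all genes tested it was 8.56%. Values are log2 of normalised reads plus 1. Vps33b, a tethering gene, stood at 9.23 in Mertk KO replicate 4, against 7.06 to 7.39 in the others, a gap of 0.846 of the whole range. Lamp2, which encodes a lysosomal membrane protein, stood at 13.75 in the same library, against 12.93 to 13.04, a gap of 0.865. Vps8, a CORVET subunit gene, stood at 3.05 in Mertk KO replicate 3, on 9 reads, against 7.56 to 8.32, a gap of 0.855. Atg4d, an ATG4 protease gene, stood at 1.39 in that library, on 2 reads, against 7.56 to 8.63, a gap of 0.852.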

How the results depend on the processing

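In every alternative run, 0 of the 39 genes passed the adjusted threshold in each comparison, and leaving out each library in turn gave 0 to 0. Calls over all genes were few in the reported fit (2, 0 and 0 in Mertk KO against control, Ptdss1 knockdown against control and Mertk KO against Ptdss1 knockdown) and reached 25, 2 and 35 with library weights. Among the genes named, 566 of 580 values in Mertk KO against control, 565 of 603 in Ptdss1 knockdown against control and 537 of 580 between them moved by less than 1 SE, with 46, 30 and 41 of the other sign. Many of these values could not move. A fold change here is a difference of 2 group means, which another filter, no robust moderation or changes to the third group leave as it was. These counts therefore overstate how stable the values were. Upper-quartile scaling turned the sign of 0, 5 and 2 of the 39 genes and library weights that of 10, 16 and 16. The causes of these moves were not tested. The spread between libraries limits what could be seen: the median SE of the 39 genes was 0.79 in Mertk KO against control and 0.85 in Ptdss1 knockdown against control, the latter 0.65 without Ptdss1 knockdown replicate 1. Of the 390 values, 15 rested on under 10 reads, 7 of them in that library, whose depth of 23442827 reads was not low. No paired analysis was possible because the labels give the libraries no replicate numbers or shared origin.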
